A study of Mus musculus with 15 samples.

Results

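Liver RNA of neonatal mice was compared with liver RNA of mouse embryos at the embryonic stage E17.5, in days of gestation, the stages on either side of birth. Both groups were of the inbred strain C57BL/6 and had 3 arrays each, 6 of the 15 arrays of a series that also covers E12.5, E14.5 and the adult at 8 weeks. No genetic change or treatment is given in the labels of either group, nor the hours after birth, the sex, or whether an array stands for 1 animal or a pool. The p-values therefore measure the spread between arrays, which may in part be technical. Each array read 59709 probes for mRNAs and long noncoding RNAs (lncRNAs), which gave 59705 features after only 1 probe was kept for each gene symbol. The 32329 features that were well above background on all 3 arrays of neonatal liver or on all 3 of E17.5 liver were tested.

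Before birth the mouse liver makes blood cells and receives glucose and lipids through the placenta. At birth that supply ends, fat-rich milk becomes the food, and the liver starts to make glucose from glycerol, lactate and amino acids and to burn fatty acids into ketone bodies. Cholesterol synthesis in liver is held down when sterols arrive with the diet, and blood formation moves to bone marrow and spleen over the days after birth. lncRNAs are transcripts without a known protein product, many of them made in some stages of a tissue and not in others. Ultraconserved elements are stretches of genome that human, mouse and rat share without a difference, some of which are transcribed.

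A level is given here as log2 of the spot signal relative to the 75th percentile of its own array, so that 0 is the 75th percentile and a step of 1 is a doubling. Levels of different probes cannot be set against each other, since each probe binds with its own strength. Only 67 tested features could be given a gene symbol, 64 of them protein-coding. None of the 9 hepatocyte markers looked for was among the named probes, and 4 of the 40 markers of the cell types listed for liver were, so the label liver could not be checked by its own markers. In tissue RNA, fewer cells of a type and less RNA per cell cannot be told apart.

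By the scan dates in the file headers, the 6 arrays were read in 2 scans. Each scan is taken here as 1 slide, since no array position repeats within a scan. The word slide below therefore stands for the scan. The neonatal arrays and E17.5 replicate 3 were on one slide, and E17.5 replicates 1 and 2 were on the other with the earlier embryos, so most of the difference between slides cannot be told apart from the difference between stages. The share of spots well above background was 57.1%, 57.7% and 58.5% on the neonatal arrays, against 80.9%, 53.5% and 54.4% on the E17.5 arrays. E17.5 replicate 1 stood apart, with 55.8% of its negative-control spots also well above background, against 4.0% to 6.5% on the other 5 arrays. Across features, neonatal arrays correlated with each other at 0.981 to 0.985 and with E17.5 replicate 3 at 0.943 to 0.952, against 0.900 to 0.923 with the E17.5 replicates of the other slide. E17.5 replicate 3 correlated with E17.5 replicates 1 and 2 at 0.947 and 0.943, so it was about as close to the neonatal arrays as to its own stage. For this reason results on single features are also given as the change against E17.5 replicate 3 alone, the only comparison made on 1 slide. That change is also what the fit with slide as a block estimates.

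Among the 32329 tested features, 6750 (20.9%) differed between neonatal and E17.5 liver at an adjusted p below 0.05 (limma, Benjamini-Hochberg). Of these, 3366 (10.4%) rose and 3384 (10.5%) fell in neonatal liver. Calls of at least 2-fold numbered 5347 (16.5%), with 2640 (8.17%) that rose and 2707 (8.37%) that fell. Changes of 16-fold or more were found for 101 features that rose and 15 that fell. In 11292 (34.9%) the arrays of the stages did not overlap, 5937 (18.4%) with neonatal liver above and 5355 (16.6%) with it below. With slide as a block 2464 (7.62%) were called, of which 1135 (3.51%) rose and 1329 (4.11%) fell. Between the arrays of the neonatal slide alone 2608 (8.07%) were called, of which 1208 (3.74%) rose and 1400 (4.33%) fell.

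Nearly all calls had the same sign against the single E17.5 array of the neonatal slide. Of the 3366 features that rose, 3329 (98.9%) were also higher in the neonatal mean than in E17.5 replicate 3, with a median log2 change of 1.04, against 1.54 relative to E17.5 replicates 1 and 2. Of the 3384 features that fell, 3374 (99.7%) were also lower than in replicate 3, with a median of −0.99, against −1.55 relative to replicates 1 and 2. Replicate 3 was 1 of the 3 arrays that chose these features, so this is a description. The smaller change within the slide was shared by both directions.

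**Figure D1:**
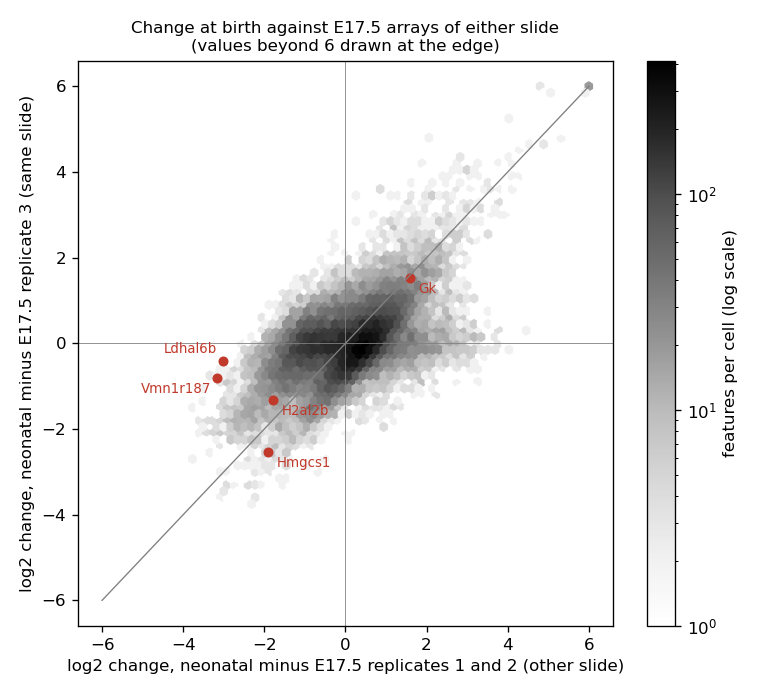
Change on the log2 scale of those of the 32329 tested features that have a value on both axes. The x axis is the neonatal mean minus the mean of E17.5 replicates 1 and 2 on the other slide. The y axis is the neonatal mean minus E17.5 replicate 3 on the same slide. Grey depth is the number of features per cell on a log scale, red points are named genes, values beyond 6 lie at the edge and the diagonal marks equal change. Hmgcs1 and Gk lie near the diagonal, whereas Ldhal6b and Vmn1r187 lie near 0 on the y axis.

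When each array was left out in turn, between 3764 and 11539 features were called, the lowest count without E17.5 replicate 2 and the highest without E17.5 replicate 3. Leaving out replicate 3 takes away the only E17.5 array read with the neonatal arrays.

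**Figure D2:**
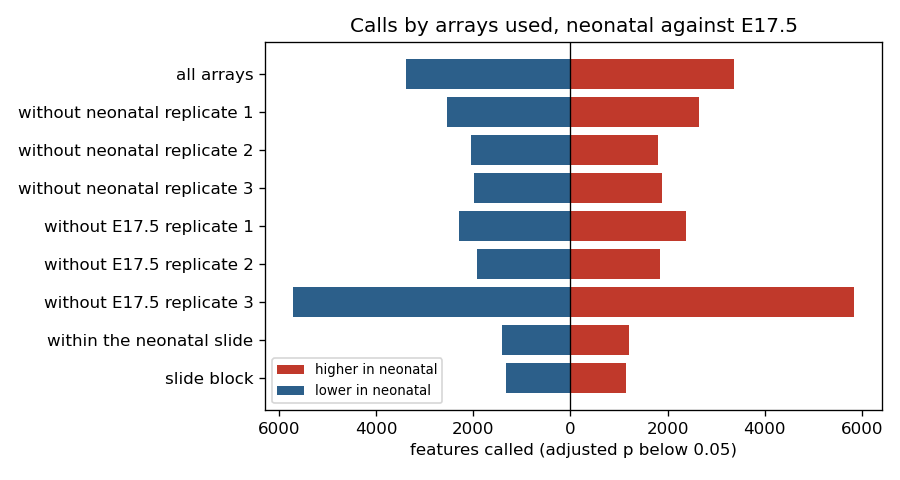
Number of features that rose (red, right) and fell (blue, left) in neonatal liver at an adjusted p below 0.05, for fits over all arrays, without each array in turn, within the neonatal slide and with slide as a block. The bars of the block, with 1135 and 1329 features, are the shortest, and those without E17.5 replicate 3 are the longest.

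Under all 14 alternatives that tested the same features, 699 features kept their rise and 613 kept their fall. At least a 4-fold change was seen in 457 of the 699 and in 326 of the 613, and 16-fold or more in 96 and 14. Of all 3366 features called as rises, 1811 (53.8%) had their highest mean of the 5 stages in the neonate, and of all 3384 called as falls 1869 (55.2%) had their lowest there. Among the kept features these were 406 (58.1%) of the 699 rises and 179 (29.2%) of the 613 falls. Since a rise or fall against E17.5 is part of the choice, these shares are descriptions and are not set against those of all tested features.

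Among the 67 tested features with a symbol, 3 rose and 5 fell as protein-coding genes and 1 noncoding gene rose. The 8 calls among 64 coding genes compare with 20.9% of all tested features. The 58 that did not pass had log2 changes between −1.06 and 1.20, and 54 of them changed less than 2-fold. Of the 9 called genes, Hmgcs1 held under every alternative and the others each lost their call under at least 1. With quantile normalization 4 of the 64 coding genes rose and 11 fell, where 7961 of all 32329 features were called. In the values of the authors' table only 47 coding genes were tested, of which 3 rose and 9 fell. There 6805 of all 28600 tested features were called.

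**Figure D3:**
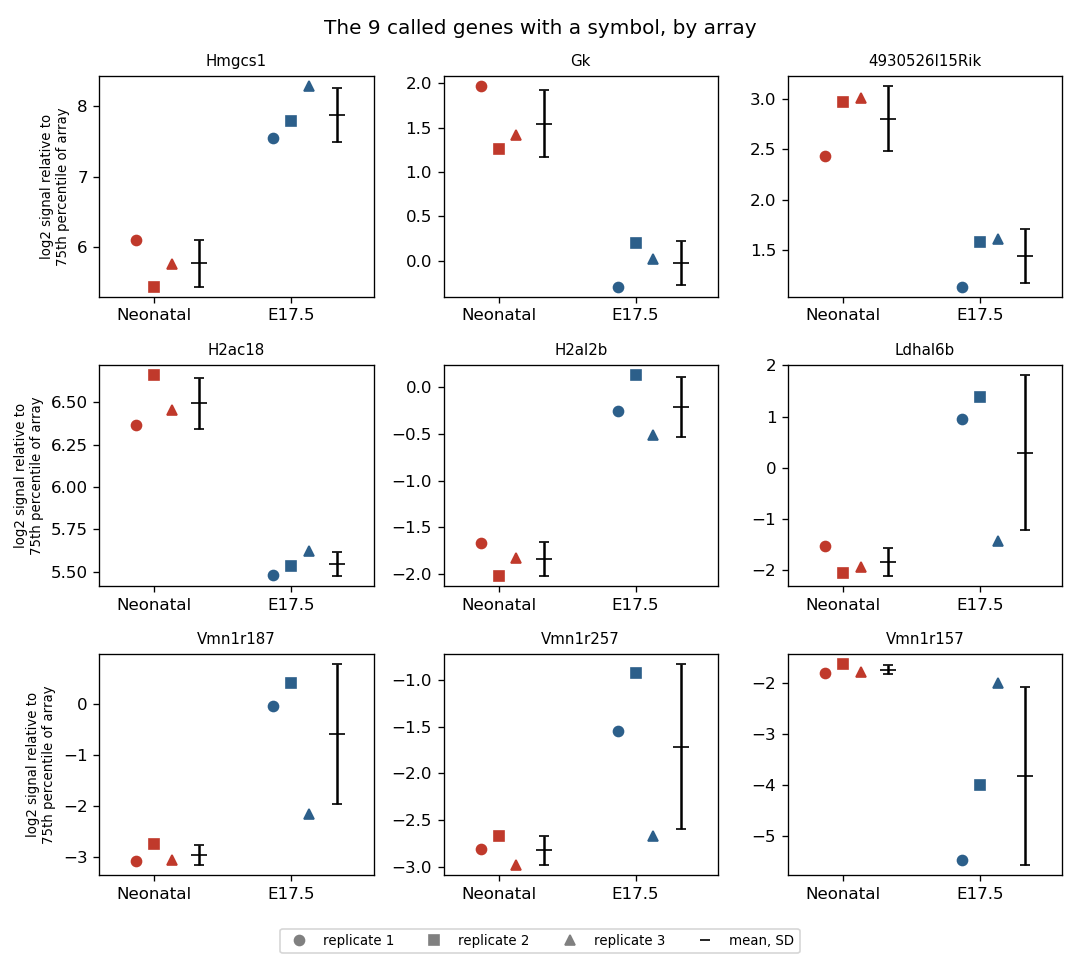
Levels of the 9 genes with a symbol that passed the test, as log2 signal relative to the 75th percentile of the array, with neonatal arrays (red) left of E17.5 arrays (blue), 1 gene per panel with its own axis. Points are arrays (circle, square and triangle for replicates 1, 2 and 3) and bars are the mean and SD of 3 arrays. Neonatal points of Hmgcs1 lie between 5.43 and 6.09, below all E17.5 points, while the E17.5 replicate 3 points of Ldhal6b (−1.44) and Vmn1r187 (−2.17) lie nearest to the neonatal ones.

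Hmgcs1 makes HMG-CoA in the cytosol, the step before the rate-limiting reductase of cholesterol synthesis. Its level was 6.09, 5.43 and 5.76 on the neonatal arrays, against 7.55, 7.79 and 8.29 on the E17.5 arrays. Every neonatal array was below every E17.5 array, with the lowest E17.5 value above the highest neonatal one by more than the spread within either stage. The level fell by 2.12 on the log2 scale (SE 0.28, a 4.33-fold difference, limma adjusted p = 0.000191). Against E17.5 replicate 3 alone the change was −2.53, and with slide as a block the adjusted p was 0.00119. Over all alternatives its adjusted p lay between 7.27e-06 and 0.00872. The neonatal mean was also below the other stages measured, with 7.34 at E14.5 and 8.86 in the adult. Hmgcs1 was the only gene tested of the 15 listed for cholesterol synthesis, so nothing is shown of the rest of the pathway.

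The promoter of Hmgcs1 is shown because many sterol-dependent genes carry the sterol regulatory element, to which the transcription factors of the SREBP family bind. The sequence is RefSeq's for GRCm38.p6, 250 bases before to 50 bases after the start, on the plus strand at chr13:119690101-119690400. The capitals mark TCACCCCAC, a form of that element, found 137 bases before the start. The same letters on either strand occur in 181 of 32851 promoters in the table, or 0.551%. The match is a description of the sequence and not a measured site.
Hmgcs1 promoter: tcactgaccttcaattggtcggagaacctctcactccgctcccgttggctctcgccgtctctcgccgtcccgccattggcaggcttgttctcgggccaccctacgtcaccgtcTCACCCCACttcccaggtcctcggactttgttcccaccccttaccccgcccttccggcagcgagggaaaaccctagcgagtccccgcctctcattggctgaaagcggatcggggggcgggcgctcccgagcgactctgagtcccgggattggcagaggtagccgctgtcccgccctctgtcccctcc

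Gk, glycerol kinase, phosphorylates glycerol so that it can enter glucose and triglyceride synthesis. It rose in neonatal liver, with 1.97, 1.26 and 1.41 on the neonatal arrays, against −0.29, 0.20 and 0.02 on the E17.5 arrays. The stages did not overlap, and E17.5 replicate 3 lay between the other 2 E17.5 arrays. The log2 change was 1.57 (SE 0.27, 2.98-fold, limma adjusted p = 0.00129) and 1.53 against replicate 3, with an adjusted p of 0.029 with slide as a block and 0.075 between the arrays of the neonatal slide alone. Gk was lower at E14.5 (−0.98) and higher in the adult (2.33), so the neonatal level lay on a course upward through the stages. It was the only gene tested of the 8 listed for glycerol use and gluconeogenesis.

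Tmlhe starts the synthesis of carnitine, the carrier of long-chain fatty acids into mitochondria. Its level was 2.03, 1.29 and 1.57 on the neonatal arrays, against 0.52, 0.48 and 1.37 on the E17.5 arrays. The highest E17.5 value, that of replicate 3, lay above the lowest neonatal one. The log2 change of 0.84 (SE 0.29) had an adjusted p of 0.0516 and was 0.26 against replicate 3. Amy2a5, a pancreatic-type amylase gene, had 5.50, 6.34 and 6.26 in neonatal liver and 5.41, 5.87 and 5.42 at E17.5, with overlapping stages and an adjusted p of 0.285. Both of these levels were well above the mean of Amy2a5 at E14.5 (−0.58) and in the adult (2.26).

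Core histones package DNA, and most of their genes are copied in clusters whose members are nearly alike. Of the 4 tested, 1 rose, 1 fell and 2 did not pass, against 20.9% called among all tested features, too few members to read a share from. H2ac18, which encodes a histone H2A, had 6.36, 6.66 and 6.46 in neonatal liver, against 5.48, 5.53 and 5.62 at E17.5. The arrays of each stage lay close together and the stages did not overlap. The log2 change was 0.95 (SE 0.23, 1.93-fold, limma adjusted p = 0.0117), and 0.87 against E17.5 replicate 3. With slide as a block its adjusted p was 0.125 and between the arrays of the neonatal slide 0.097, so the call did not hold there, nor without neonatal replicate 2. The mean of H2ac18 was 3.35 at E14.5 and 7.64 in the adult, below and above both of these stages.

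H2ac19 encodes the same kind of histone at the neighbouring position. Its level was 8.10, 7.85 and 7.65 in neonatal liver, against 7.76, 7.23 and 8.55 at E17.5. The stages overlapped, and E17.5 replicate 3 was the highest of the 6 arrays. The log2 change was 0.02 (SE 0.32), with −0.68 against replicate 3 and a reversed sign under 8 alternatives. The changes of H2ac18 and H2ac19 differed by 0.93, with an exact two-sided permutation p of 0.2 over the arrays, where 0.1 is the smallest that 3 against 3 arrays can give. H2ac23, another H2A gene, had −0.68, −0.88 and −1.48 in neonatal liver, against −0.28, −0.19 and 0.27 at E17.5, with no overlap and an adjusted p of 0.134.

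The promoters of H2ac18 and H2ac19 are shown because the pair shares a long run of sequence, here in capitals, and the changes of the pair were 0.95 and 0.02. RefSeq places the first on the plus strand at chr3:96245247-96245546 and the second on the minus strand at chr3:96240325-96240624 (GRCm38.p6). The shared run of 219 bases fills positions 42 to 260 of the first window and 82 to 300 of the second. RNA of such near-identical genes can bind the probes of both, so neither value is certain to come from 1 gene.
H2ac18 promoter: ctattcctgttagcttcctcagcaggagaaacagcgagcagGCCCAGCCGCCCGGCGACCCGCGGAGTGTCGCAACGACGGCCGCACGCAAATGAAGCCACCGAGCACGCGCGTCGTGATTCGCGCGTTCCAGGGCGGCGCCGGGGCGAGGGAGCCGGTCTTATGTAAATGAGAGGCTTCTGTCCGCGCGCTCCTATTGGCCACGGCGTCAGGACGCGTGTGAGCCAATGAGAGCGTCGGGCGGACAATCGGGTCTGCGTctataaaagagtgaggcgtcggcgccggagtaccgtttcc
H2ac19 promoter: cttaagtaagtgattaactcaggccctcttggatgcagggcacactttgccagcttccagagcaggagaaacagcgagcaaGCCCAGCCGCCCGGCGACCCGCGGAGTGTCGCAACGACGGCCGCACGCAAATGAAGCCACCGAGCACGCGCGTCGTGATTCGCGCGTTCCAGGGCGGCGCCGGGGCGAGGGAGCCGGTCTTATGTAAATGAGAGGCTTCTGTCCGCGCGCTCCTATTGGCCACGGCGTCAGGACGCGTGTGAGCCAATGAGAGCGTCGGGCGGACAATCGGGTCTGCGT

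H2al2b, a Y-linked histone variant gene known from testis, had −1.67, −2.02 and −1.83 in neonatal liver, against −0.25, 0.13 and −0.51 at E17.5. The stages did not overlap and E17.5 replicate 3 was the lowest of its stage. The log2 change was −1.63 (SE 0.31, 3.1-fold, limma adjusted p = 0.00219), and −1.33 against replicate 3, where the call was lost with a block for slide (adjusted p = 0.077). The other Y-linked features tested, Gm20823 and Gm20738, had log2 changes of −0.02 and 0.25 and did not pass. The sex of the mice was not part of the labels, and its part in the H2al2b value was not tested.

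Ldhal6b, a lactate dehydrogenase-like gene known from testis, had −1.54, −2.05 and −1.95 in neonatal liver, against 0.94, 1.38 and −1.44 at E17.5. The difference came with E17.5 replicates 1 and 2, and replicate 3 was close to the neonatal arrays. The fall of 2.14 on the log2 scale (SE 0.53, limma adjusted p = 0.0116) was −0.41 against replicate 3, with an adjusted p of 0.631 with slide as a block. The call was also lost without E17.5 replicate 1 and without E17.5 replicate 2.

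Vomeronasal receptor genes encode pheromone receptors of the nasal sensory organ, a family of many similar members. Of 6 tested, 1 rose, 2 fell and 3 did not pass, against 10.4% rising and 10.5% falling among all tested features. With so few members nothing is read from this share. Vmn1r187 had −3.09, −2.75 and −3.08 in neonatal liver, against −0.05, 0.41 and −2.17 at E17.5. Vmn1r257 had −2.81, −2.67 and −2.98 in neonatal liver, against −1.54, −0.93 and −2.67 at E17.5. In both, E17.5 replicate 3 was the lowest of its stage and nearest to the neonatal arrays. Their changes of −2.37 (SE 0.54, adjusted p = 0.00744) and −1.11 (SE 0.35, adjusted p = 0.0363) came to −0.80 and −0.16 against replicate 3, where neither passed. Vmn1r257 lost its call under 11 alternatives, among them the fits without any 1 of the arrays other than E17.5 replicate 3.

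Vmn1r157, the member that rose, had −1.80, −1.64 and −1.79 in neonatal liver, against −5.47, −3.99 and −1.99 at E17.5. It was well above background on 1 of the 3 E17.5 arrays and entered the test only through neonatal liver, with replicate 3 the highest of its stage. The size of its rise rests on 2 E17.5 arrays where it was dim and is no measured fold. Its fitted log2 change was 2.07 (SE 0.70, adjusted p = 0.0481), and 0.25 against replicate 3. The call was lost under 14 alternatives, among them the fits without any 1 of the arrays other than E17.5 replicate 3. With replicate 3 as the comparison, Vmn1r111 and Vmn1r135 changed sign, at −0.32 and 0.33, and neither passed the test in either fit. All 3 called members had E17.5 replicate 3 closest to neonatal liver, and stage and slide cannot be told apart in the values of the other E17.5 arrays.

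The noncoding gene 4930526I15Rik had 2.43, 2.97 and 3.01 in neonatal liver, against 1.14, 1.58 and 1.61 at E17.5. The stages did not overlap. It rose by 1.36 (SE 0.25, 2.56-fold, limma adjusted p = 0.00181), and 1.19 against E17.5 replicate 3, with an adjusted p of 0.048 with slide as a block and 0.072 within the neonatal slide.

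None of the 8 tested reference genes (Gapdh, Actb, Ppia, Hprt, Tbp, Gusb, B2m and Tfrc) passed the test. Their log2 changes ranged from −0.43 to 0.56, with a median of 0.20, against 0.08 for all tested features. E17.5 replicate 3 was the highest E17.5 array for all 8 of them, and their SD over the E17.5 arrays was 0.43 to 0.61, against 0.05 to 0.20 over the neonatal arrays. Against replicate 3 the changes ranged from −1.11 to 0.11, and the signs of Gapdh, Actb, Ppia and Hprt turned both there and with quantile normalization. Tfrc, the transferrin receptor through which red cell precursors take up iron, had 8.24, 8.27 and 7.98 in neonatal liver, against 8.10, 8.39 and 9.27 at E17.5. The stages overlapped, and the change of −0.43 (SE 0.33, adjusted p = 0.383) was −1.11 against replicate 3. It passed with quantile normalization (−0.74, limma adjusted p = 0.0224), and Gusb passed without E17.5 replicate 3 (0.55, limma adjusted p = 0.043). Tfrc was the only gene tested of the 10 listed for red cells and iron, and was lower in the adult, with a mean of 5.50.

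No member of the 5 genes tested for cytoskeleton, ribosome and chaperone functions passed, although Tuba1b, a tubulin of microtubules, fell with quantile normalization (−0.83, limma adjusted p = 0.00169). Hsp90ab1, a cytosolic chaperone, had 6.66, 6.82 and 7.09 in neonatal liver, against 5.77, 5.94 and 6.33 at E17.5. These stages did not overlap, yet the adjusted p was 0.0862 at a log2 change of 0.84 (SE 0.33). Of the 4 genes tested for chemokines and antigen presentation none passed. Ccl21c, of the CCL21 chemokines that guide lymphocytes and dendritic cells, had 1.19, 1.25 and 1.06 in neonatal liver, against 2.07, 2.08 and 2.19 at E17.5, with an adjusted p of 0.0571 that was below 0.05 under 4 alternatives. B2m, the light chain of MHC class I, had a log2 change of 0.56 (SE 0.31, adjusted p = 0.223).

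The noncoding features were read by their ID families, since the files name them without a gene. Of 1992 tested noncoding features, 158 rose and 289 fell, and the 22.4% called compares with 20.9% of all tested features. A + or − at the end of an ID is taken here as its strand. The probes named as exons of long intergenic noncoding RNAs (lincRNAs) had 1538 tested of 3457, of which 130 (8.45%) rose and 207 (13.5%) fell. IDs that begin with humanlincRNA had 284 tested of 1217, of which 17 (5.99%) rose and 51 (18%) fell. Mouse lincRNA IDs had 167 tested of 691, of which 10 (5.99%) rose and 31 (18.6%) fell. In all 3 families the share that rose was below, and the share that fell above, the 10.4% and 10.5% of all tested features, as a description with no test.

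**Figure D4:**
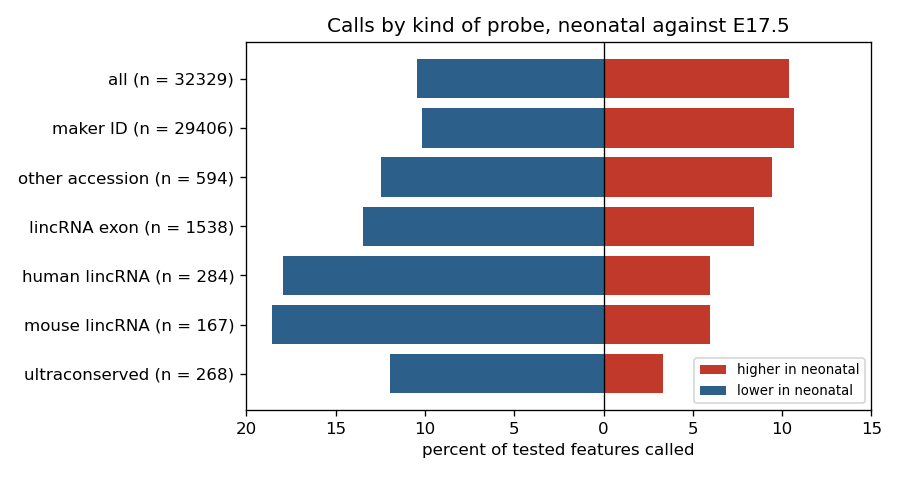
Share of tested features that rose (red, right) or fell (blue, left) in neonatal liver, in percent, by ID family, with all tested features for comparison. Bars start at 0. In the ultraconserved elements 3.36% rose and 11.9% fell, against 10.4% and 10.5% of all tested features.

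The median log2 change of the lincRNA exons was −0.16 over all arrays, −0.05 against E17.5 replicate 3 and −0.20 against replicates 1 and 2. Human lincRNA IDs had −0.31, −0.04 and −0.57 in the same order, and mouse lincRNA IDs −0.49, −0.09 and −0.73. All tested features had 0.08, −0.02 and 0.15. With slide as a block, 41 (2.67%) lincRNA exons rose and 57 (3.71%) fell. In the same fit 2 (0.704%) human lincRNA IDs rose and 8 (2.82%) fell, and 3 (1.80%) mouse lincRNA IDs rose and 7 (4.19%) fell. The share that fell was thus near or below the 4.11% of all tested features in the same fit. The share that rose stayed below the 3.51% of all tested features in each family, and falls still outnumbered rises.

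Among lincRNA exons, the largest rise was that of MM9LINCRNAEXON10271 on the minus strand, chosen, like the features named below, from those above background on all 6 arrays and without overlap. Its level was 3.50, 4.14 and 3.45 in neonatal liver, against −0.70, −0.35 and −0.84 at E17.5. E17.5 replicate 3 lay with its own stage. The rise of 4.33 (SE 0.24, 20.1-fold, limma adjusted p = 1.27e-07) held under all alternatives and was 4.54 against replicate 3. Its mean was −0.59 at E14.5 and 3.99 in the adult, so the neonatal level lay near that of the adult.

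Another exon, MM9LINCRNAEXON10415 on the minus strand, had 2.90, 4.28 and 3.84 in neonatal liver, against −0.27, 0.45 and −0.49 at E17.5. The stages were far apart, and the adult mean of 5.91 was higher again. It rose by 3.78 (SE 0.39, 13.7-fold, limma adjusted p = 2.66e-05) and held under all alternatives. MM9LINCRNAEXON10239 on the plus strand fell, with 0.17, 0.46 and −0.22 in neonatal liver, against 2.63, 2.72 and 2.82 at E17.5. The E17.5 arrays lay close together and the change of −2.59 (SE 0.31, 6.00-fold) had a limma adjusted p of 9.50e-05. MM9LINCRNAEXON11707 on the plus strand fell further, by 2.94, with −2.03, −2.30 and −2.67 in neonatal liver, against 0.94, 1.45 and −0.56 at E17.5, but its change against replicate 3 was −1.77 and its call was lost between the arrays of the neonatal slide (adjusted p = 0.0548).

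The human lincRNA ID with the largest fall was humanlincRNA0111 on the plus strand, with 1.53, −1.13 and 0.29 in neonatal liver, against 3.94, 4.63 and 4.73 at E17.5. The neonatal arrays were spread widely but all lay below the E17.5 arrays. It fell by 4.20 (SE 0.51, 18.4-fold, limma adjusted p = 0.000102), with −4.50 against replicate 3. humanlincRNA0970 on the minus strand had 1.62, 2.03 and 0.08 in neonatal liver, against 4.43, 4.96 and 3.98 at E17.5. It fell by 3.21 (9.28-fold, limma adjusted p = 0.000251) with −2.74 against replicate 3, and both IDs held under all alternatives.

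Of the 17 rises and 51 falls in this family, 1 rise and 4 falls were kept under every alternative run on the same features. The named rises were not among them. humanlincRNA0324 on the minus strand had 5.88, 6.14 and 5.33 in neonatal liver, against 2.46, 3.13 and 4.37 at E17.5. Its change of 2.46 was 1.41 against E17.5 replicate 3, with an adjusted p of 0.0985 with slide as a block. humanlincRNA2274 on the minus strand had 0.70, 0.26 and 0.07 in neonatal liver, against −2.0, −2.51 and −0.24 at E17.5, a change of 1.93 that was 0.58 against replicate 3. Its call was lost with slide as a block and without E17.5 replicate 1 or 2.

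Among mouse lincRNA IDs, mouselincRNA0052 on the minus strand had 2.46, 2.53 and 1.91 in neonatal liver, against 4.54, 4.88 and 4.65 at E17.5. The stages did not overlap and replicate 3 lay between the other E17.5 arrays. It fell by 2.39 (SE 0.27, 5.24-fold, limma adjusted p = 5.02e-05) and held under all alternatives, as did mouselincRNA0077 on the minus strand with a change of −2.46. A single rise qualified, that of mouselincRNA0453 on the plus strand, with 5.63, 5.62 and 5.46 in neonatal liver, against 4.79, 4.47 and 4.47 at E17.5. It changed by 0.99 (SE 0.24, limma adjusted p = 0.00958), with an adjusted p of 0.0542 with slide as a block.

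Probes for ultraconserved elements, 962 for both strands of 481 elements, had 268 tested, of which 9 (3.36%) rose and 32 (11.9%) fell in neonatal liver. In all 15.3% were called, against 20.9% of all tested features. With slide as a block 2 (0.746%) rose and 10 (3.73%) fell, against 3.51% and 4.11% of all tested features. The share of falls was thus not above that of all tested features there. The share of rises stayed below it, and falls still outnumbered rises. The element with the largest fall was uc.425 on the plus strand, with −1.20, −0.65 and −1.36 in neonatal liver, against 3.11, 3.60 and 1.79 at E17.5. All neonatal arrays lay below all E17.5 arrays, of which replicate 3 was the lowest. The fall of 3.90 (SE 0.49, limma adjusted p = 0.000126) came to −2.86 against replicate 3 and held under all alternatives.

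uc.355 on the plus strand had −0.09, −0.04 and −0.19 in neonatal liver, against 2.76, 3.12 and 1.58 at E17.5. The neonatal arrays lay within a narrow range and the fall of 2.59 (6.03-fold, limma adjusted p = 0.000386) came to −1.69 against replicate 3 and held under all alternatives. uc.74 on the minus strand rose, with 1.16, 1.46 and 1.54 in neonatal liver, against −0.52, −0.28 and −0.13 at E17.5. Its change of 1.69 (SE 0.23, 3.24-fold, limma adjusted p = 0.00023) held under all alternatives, and the adult mean of −0.83 was lower again. uc.18 on the minus strand had 1.74, 0.88 and 1.08 in neonatal liver, against −1.69, −2.01 and 0.84 at E17.5, so that its change of 2.19 was 0.40 against replicate 3 and its call was lost under 10 alternatives, among them the fits without any 1 of the arrays other than E17.5 replicate 3.

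**Figure D5:**
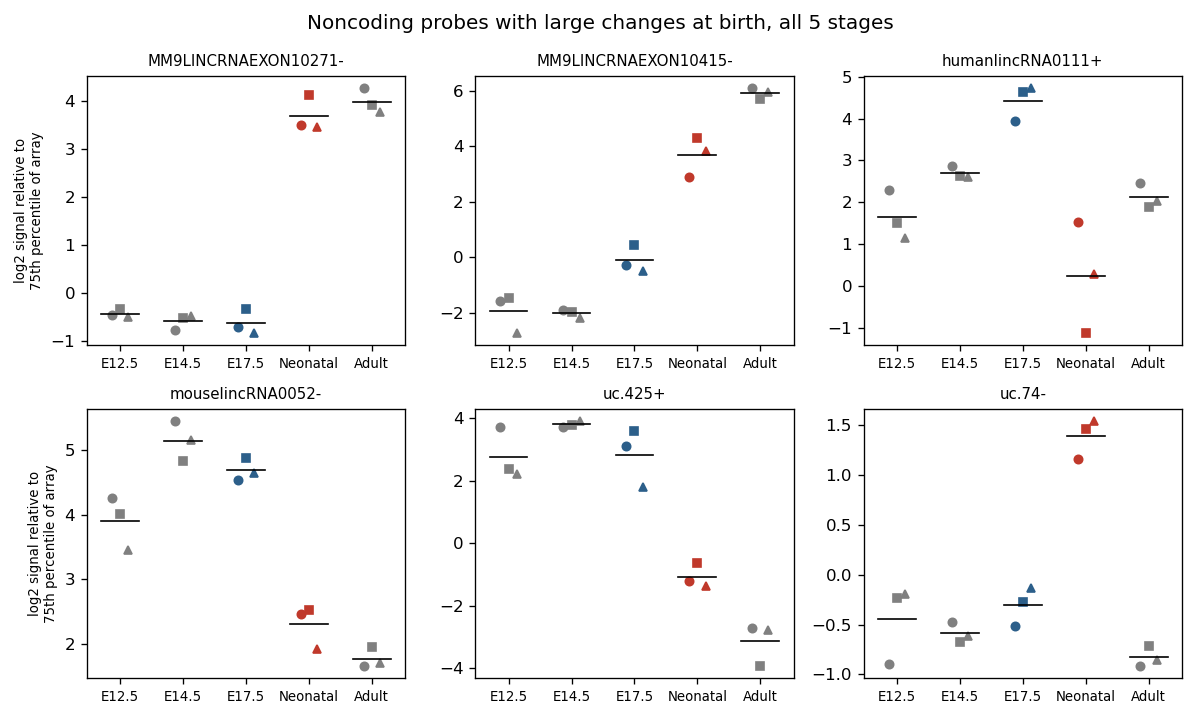
Levels of 6 noncoding or ultraconserved features on all 15 arrays in order of stage, as log2 signal relative to the 75th percentile of the array, 1 feature per panel. Points are arrays (circle, square and triangle for replicates 1, 2 and 3) and lines are stage means, with neonatal arrays in red and E17.5 arrays in blue. MM9LINCRNAEXON10271 rises to between 3.45 and 4.14 in the neonate and stays near there in the adult (3.99), whereas uc.74 has its highest mean of the 5 stages in the neonate and −0.83 in the adult.

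A part of these units had both strands tested, 358 of 1180 among the lincRNA exons, so that calls could be counted by strand. Of 358 lincRNA exons with both strands tested, 221 had neither called, 114 had 1 and 23 had both. Their probes were called in 22.3% of cases, near the 20.9% of all tested features. Both strands rose in 8, both fell in 10, and they moved in opposite directions in 5. Of 40 human lincRNA IDs with both strands tested, 16 had 1 strand called and none had both, with 20% of their probes called. Of 20 mouse lincRNA IDs 8 had 1 and 2 had both, both falling, with 30% of their probes called. Of 52 ultraconserved elements 10 had 1 and 1 had both, with 11.5% of their probes called. The element with both was uc.188, with −1.51 on the plus and −1.14 on the minus strand. A single strand passing is no sign that the strands differed, since the difference was not tested.

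MM9LINCRNAEXON11750 rose on both strands, by 2.81 (SE 0.33) on the plus and 2.41 (SE 0.50) on the minus strand, with 3.43 and 2.68 against E17.5 replicate 3. MM9LINCRNAEXON11104 was called in opposite directions, −1.90 on the plus strand (limma adjusted p = 0.000446) and 1.74 on the minus strand (limma adjusted p = 0.00896). Against replicate 3 these were −1.77 and 1.81, so the opposite signs were also seen on 1 slide. MM9LINCRNAEXON11054 was 2.50 on the plus and −1.24 on the minus strand, with 1.39 and −0.62 against replicate 3. MM9LINCRNAEXON10563 was −1.43 and 1.42, with −0.79 and 1.11 against replicate 3.

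Of 594 tested probes with another accession than RefSeq's, 56 (9.43%) rose and 74 fell, and the 21.9% called was near the 20.9% of all tested features. The files give no gene for them. BX523225 (2.40) and AI507368 (2.27) rose most of those the naming rule admits. Against E17.5 replicate 3 they were 2.15 and 0.84, and neither passed with slide as a block (adjusted p = 0.100 and 0.481, limma). AI507368 also lost its call without neonatal replicate 2. AV464199 and CA885545 fell by 2.43 and 2.40, with −1.83 and −1.88 against replicate 3, and CA885545 held under all alternatives. The 29406 tested probes with the maker's ID had 3140 that rose and 2984 that fell.

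Some features were read above background at 1 of the stages only. Well above background on all 3 neonatal arrays and on no E17.5 array were 207 features, of which 143 passed the test. Well above background on no neonatal array and on all 3 E17.5 arrays were 250, of which 219 passed. Since detection at 1 stage and not at the other chose these features, more of them than the 20.9% of all tested features were bound to pass, and nothing is read from that. Their folds are bounds, with the bright stage set against the higher of the dim probe's signal and the lowest signal read above background on that array. The folds were at least 1.61 in the median and up to at least 40.5 for those well above background in the neonate, and at least 2.40 and up to at least 17.1 for those well above it at E17.5. The 207 held 12 lincRNA exons, 3 human and 2 mouse lincRNA IDs and 3 ultraconserved probes, and the 250 held 19, 2, 3 and 5 of them. None of them carried a symbol.

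In 4 groups of equal size by mean level, dimmest first, 9.40%, 8.13%, 11.2% and 12.9% rose and 9.34%, 12.6%, 13.3% and 6.59% fell. With slide as a block, 4.14%, 3.07%, 3.58% and 3.25% rose and 2.54%, 2.77%, 5.12% and 6.01% fell, so the surplus of rises among the brightest features became a surplus of falls. The median of the dimmest group was −2.39, −2.39 and −2.36 on the neonatal arrays, against −1.92, −2.59 and −2.55 on the E17.5 arrays, with E17.5 replicate 1 the highest. In the brightest group the medians were 4.11, 4.22 and 4.22 on the neonatal arrays, against 3.65, 3.95 and 4.30 on the E17.5 arrays, with E17.5 replicate 1 the lowest. E17.5 replicate 1 thus had a narrower range of levels than the other 5, and its part in the calls was not tested beyond the fits without it.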

How the data were processed

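RNA was freed of ribosomal RNA and made into random-primed Cy3 cRNA for 1-colour Agilent arrays, per the labels' protocols. Per the file headers, the deposited spot intensity values are linear, background-subtracted and spatially detrended by Feature Extraction 11.0.1.1 on a probe grid of build mm9, with a multiplicative detrending step on the neonatal arrays and E17.5 replicate 3 and not on E17.5 replicates 1 and 2. The submitters' processing notes name version 10.7.3.1. The authors' value table holds deposited log2 values for 29158 probes, whose column medians are 7.85, 7.84 and 7.85 for neonatal liver and 7.88, 7.89 and 7.87 for E17.5; its normalization is not given in the sources used here, and it served as an alternative.

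Control spots and spots marked as outliers were left out, spots of a probe were averaged, and log2 intensity minus the 75th percentile of the array was tested. The fit used limma 3.58.1 (lmFit, eBayes) in R 4.3.3 with a mean per stage over all 15 arrays, and Benjamini-Hochberg adjustment over the 32329 features that cleared background throughout neonatal or throughout E17.5 liver, called below 0.05. Of these, 4029 passed the filter only through neonatal liver, 1114 only through E17.5, and 222 had a missing value on an array. Arrays have no read depth, and their number limits the precision. Of 123 probes with a RefSeq accession, 116 were given 112 symbols through the RefSeq table (GRCm38.p6, for names), and for the 3 symbols with several probes 1 probe stood for the gene by the rule of highest mean signal. The naming rules took all called symbols and the tested members of 11 gene lists. They also took the 10 symbols with the largest rise and the 10 with the largest fall, called or not. Per ID family they took up to 2 rising and 2 falling called features, above background on all 6 arrays and without overlap. Strand examples, uc.188, any other symbol and the genes near the threshold that are described were chosen after their values were seen. The comparison, its features and the lists were chosen with earlier results of these data known.

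Slide was tested as a block and by refitting within the neonatal slide; 19 alternatives were tried. Normexp background correction used the median spot signal in place of the mean one. On simulated data with 200 changed features among 32329, the fit recovered 12% of those changed 2-fold and 73% of those changed 4-fold, with 2 false calls. The noise was drawn independently for each feature and array, without a shared effect of slide. The false calls of the simulation therefore set no bound on those in the data.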

Additional observations from a re-analysis of the deposited data

How the results depend on the processing

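Each count below is the total of its own fit, not a part of the calls of the main fit. The total of features called between neonatal and E17.5 liver was 6750 in the main fit. It came to 4096 with the 6 arrays alone, 2464 with slide as a block, and 2507 with slide as a block without E17.5 replicate 1. Between the arrays of the neonatal slide it was 2608. It ranged from 3764 to 11539 when each array was left out, with the lowest value without E17.5 replicate 2 and the highest without E17.5 replicate 3, and was 3861 without neonatal replicate 2 and 3872 without neonatal replicate 3. The same settings took the 447 noncoding calls to 271, 119, 121 and 132, with 225 to 895 when each array was left out. They took the 41 calls among ultraconserved elements to 26, 12, 12 and 14, with 23 to 92. Coding calls numbered 8 in the main fit and 3 with slide as a block, with or without E17.5 replicate 1. With slide as a block and all arrays they were Hmgcs1, Gk and Mia3. Mia3 was not among the 8, with a log2 change of 0.37 in the main fit and 1.40 against E17.5 replicate 3. It was well above background on 2 of the 3 E17.5 arrays. Coding calls were 15 with quantile normalization (4 up, 26.7%, against 37.5% up) and 5 to 16 when each array was left out. The total was 7961 with quantile normalization, 6792 with normexp and 6476 before multiplicative detrending. It was 6805 of 28600 tested features in the authors' table and 4755 of 59705 without a filter on dim probes.

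Same-numbered neonatal and E17.5 arrays deviated from their stage means with correlations of 0.014, 0.018 and 0.0006, so no pairing by number was seen. These values cannot exclude a pairing, since the deviations at E17.5 also hold the difference between slides. With the replicate block the counts were 6850 in all, 467 noncoding, 10 coding and 46 ultraconserved, and Hsp90ab1 and Gm16513 passed.

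Among the named features, 13 lost their call with slide as a block and 15 between the arrays of the neonatal slide. Some genes taken by the naming rules did not pass in the main fit and did so under alternatives. They were Tmlhe and Gm16513 (5 each), Ccl21c (4), Hsp90ab1 and Tcstv1 (2 each), and Ccl21b, Tfrc, Tuba1b, Gusb, B020031M17Rik, Vmn1r111 and Vmn1r135 (1 each, the last 2 and Gusb without E17.5 replicate 3). Outside those rules, Mia3, Gm14819, Disp1, Ccdc82 and Tagap each passed under at least 1 alternative. The median log2 change of all tested features was 0.08, and 0.03, 0.03 and −0.03 with quantile normalization, normexp and the authors' table. No sign turned among the called genes. Other tested symbols outside the naming rules also turned and are not listed, among them Gm20823 (−0.02, with 0.48 against E17.5 replicate 3) and Tsnax (0.16, with −0.27). Among the genes of the naming rules that did not pass, signs turned as follows. With quantile normalization, Actb was −0.093, Gapdh −0.12, Hprt −0.031, Nono −0.14, Ppia −0.15, Rpl13a −0.068, H2ac19 −0.29 and Vmn1r241 0.082. In the authors' table H2ac19 was −0.29 and Vmn1r241 0.083. With slide as a block, with or without E17.5 replicate 1, and within the neonatal slide, Actb was −0.37, Gapdh −0.27, Gusb −0.27, H2ac19 −0.68, Hprt −0.28, Nono −0.47, Ppia −0.31, Rpl13a −0.28, Vmn1r111 −0.32 and Vmn1r135 0.33. When each array was left out, the log2 change ranged over −0.025 to 0.52 for Actb, −0.074 to 0.39 for Gapdh, −0.29 to 0.37 for H2ac19, −0.076 to 1.13 for Nlrp4g, −0.10 to 0.41 for Nono, −0.12 to 0.30 for Ppia, −0.025 to 0.41 for Rpl13a and −0.26 to 0.19 for Tbp. The causes were not tested. A difference between slides cannot be told apart from that between stages except through E17.5 replicate 3, which is 1 array.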
